A study of Mus musculus with 6 samples.

Results

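Pltp, Abca1, Abcg1, Lpl, Nr1h3, Lipa, Fabp5, Fabp4, Plin2 and Cd36 are 10 genes that move lipid out of cells, carry it between lipoproteins, break it down, bind it or store it. They were taken by symbol from a table of 49315 genes that holds RNA-seq counts of sorted regulatory T cells (Tregs), a class of CD4+ T cell that is defined by the transcription factor Foxp3 and holds immune responses in check. The table covered 6 libraries, 3 of Tregs from skin and 3 of Tregs from the skin-draining lymph nodes (SDLNs), all from mice of the genotype Foxp3-GFP at 9 days of age, with no treatment named. In these mice a green fluorescent protein is made with Foxp3, so the model limits the sort to cells in which that reporter is on. Skin and lymph nodes were dissociated, material of 3 biological replicates was pooled into each sample, CD45+ cells were enriched on beads, and live CD45+ CD4+ Foxp3-EGFP+ cells were sorted. The study asked which ligand genes skin Tregs express above their lymph node counterparts, and named Apoe, Pltp and Abca1 among the genes such ligands may act on in epithelium. The levels of the 10 genes in these bulk libraries are described here, with skin Tregs and SDLN Tregs as the names of the labelled libraries.

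Most cells cannot break down cholesterol and dispose of it by export. ABCA1 and ABCG1 pump it onto lipoprotein particles, apolipoprotein E accepts it, and phospholipid transfer protein (PLTP) remodels the particles. The liver X receptors, encoded by Nr1h3 and Nr1h2, switch these genes on when oxidised sterols build up. The fatty acid receptor PPARγ, encoded by Pparg, drives uptake and storage genes such as Cd36, Fabp4, Lpl and Plin2 in adipocytes and macrophages. All of these genes are best known from macrophages, adipocytes and epithelium, and T cells use part of the same machinery.

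Letters upstream of the start site were available in RefSeq (build GRCm38.p6) for 6 of the 10 genes, namely Abca1, Cd36, Lipa, Nr1h3, Plin2 and Pltp. The 250 bases before each start were searched on both strands for AGGTCA, the half-site shared by many nuclear receptors, and for GGTTA and GGTCA on the same strand with 5 letters of any kind between them. The latter is a form of the direct repeat bound by liver X receptors, and its last letters can overlap the first motif. AGGTCA was present in 14% of 32851 windows and the longer pattern in 15 windows (0.0457%). A match was found for 3 of the genes. The 3 windows are printed so that the letters can be read beside the levels of Nr1h3, Nr1h2 and Pparg given further on. Each is written 5′ to 3′ on the strand of the gene, which is the minus strand for all 3, and capitals mark the match. In Abca1 (chr4:53159896-53160145) the longer pattern lay on the opposite strand from -67 to -53 relative to the start site. In Plin2 (chr4:86670060-86670309) AGGTCA lay on the opposite strand from -218 to -213, and in Cd36 (chr5:17835897-17836146, a start inside the span of the gene model used for counting) from -228 to -223. These matches describe letters and not binding.
Abca1: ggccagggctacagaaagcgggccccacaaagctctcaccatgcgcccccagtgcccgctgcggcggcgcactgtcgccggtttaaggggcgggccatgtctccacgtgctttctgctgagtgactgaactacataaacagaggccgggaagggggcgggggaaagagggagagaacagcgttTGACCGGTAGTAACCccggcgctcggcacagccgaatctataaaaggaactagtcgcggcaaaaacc
Plin2: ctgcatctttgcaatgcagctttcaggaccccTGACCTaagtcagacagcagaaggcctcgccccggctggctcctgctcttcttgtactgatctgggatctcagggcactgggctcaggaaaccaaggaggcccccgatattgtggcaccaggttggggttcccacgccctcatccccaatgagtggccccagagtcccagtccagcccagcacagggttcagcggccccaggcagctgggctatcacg
Cd36: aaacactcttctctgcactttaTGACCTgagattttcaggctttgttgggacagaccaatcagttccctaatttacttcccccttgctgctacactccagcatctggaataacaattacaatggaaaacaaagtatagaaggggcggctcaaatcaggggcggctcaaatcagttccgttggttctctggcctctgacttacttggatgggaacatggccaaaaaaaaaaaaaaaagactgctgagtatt

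The libraries differed widely in depth and content. Total counts were 3748669 to 11741784 in skin Tregs and 47243498 to 116158706 in SDLN Tregs, and 2911 to 5317 genes reached 1 CPM (counts-per-million, relative to each library's total) in skin libraries against 12397 to 13002 in SDLN libraries. Values of 3 libraries are given in the order A, B, C. Since a reading of 0 is compatible with as many as 3 counts, that number is called the floor, equal to 0.800, 0.255 and 0.332 CPM in skin Tregs and 0.0258 to 0.0635 CPM in SDLN Tregs. Foxp3 itself had 0, 330 and 1 counts in skin Tregs and 1788 to 12208 in SDLN Tregs, so that this gene was at the floor in 2 of the 3 libraries labelled skin Treg, as was Cd4. In bulk libraries, fewer cells of a type and less RNA per cell cannot be told apart.

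Of the efflux pumps, Abcg1 was over the floor in every library and Abca1 in 1 of the 3 skin libraries. Abcg1 (ENSMUSG00000024030, GRCm38 chromosome 17, 31057675 to 31117988) had the highest mean of the 10 genes per length of exon in both populations. It had 68.0, 702 and 706 CPM in skin Tregs and 712, 341 and 1012 CPM in SDLN Tregs. Skin Tregs B and C lay within the SDLN range and skin Tregs A lay below it. The means were 492 ± 367 CPM and 688 ± 336 CPM (SD, n = 3 each). The log2 fold change, skin over SDLN as fitted by the edgeR quasi-likelihood test, was -0.34 with a standard error (SE) of 1.05 and an adjusted p of 0.919, which does not pass the threshold of 0.05.

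Abca1 (ENSMUSG00000015243, chromosome 4, 53030787 to 53159895), the pump that loads lipid-poor particles, had 2, 0 and 1367 counts in skin Tregs, or 0.534, 0 and 151 CPM. SDLN Tregs held 14.0, 9.31 and 2.52 CPM. Skin Tregs C therefore stood above every SDLN library and the other skin libraries stood below every one of them, so that 99.6% of the summed skin CPM came from 1 library. The log2 fold change was 2.91 (SE 2.92, 95% interval -4.34 to 10.16, edgeR adjusted p = 0.596). Without skin Tregs C it was -6.02, with an adjusted p of 0.0383 by edgeR, so the direction and the call both rested on that library. As the remaining skin libraries were at the floor, that fitted value gives no size.

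Nr1h3 (ENSMUSG00000002108, chromosome 2, 91184061 to 91202834), which encodes the liver X receptor of macrophages and liver, had a count of 0 in all 3 skin libraries. SDLN Tregs had 1, 126 and 13 counts, or 0.00861, 1.73 and 0.275 CPM. It was the 1 gene of the 10 whose groups did not overlap, but only SDLN Tregs B exceeded the floor of every skin library. A difference was not detectable at this depth, and the gene was too low to be tested. Its widely expressed relative Nr1h2 was at 387, 108 and 150 CPM in skin Tregs and 132, 118 and 157 CPM in SDLN Tregs (log2 fold change 0.48, SE 0.80, edgeR adjusted p = 0.806), so the groups overlapped.

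**Figure D1:**
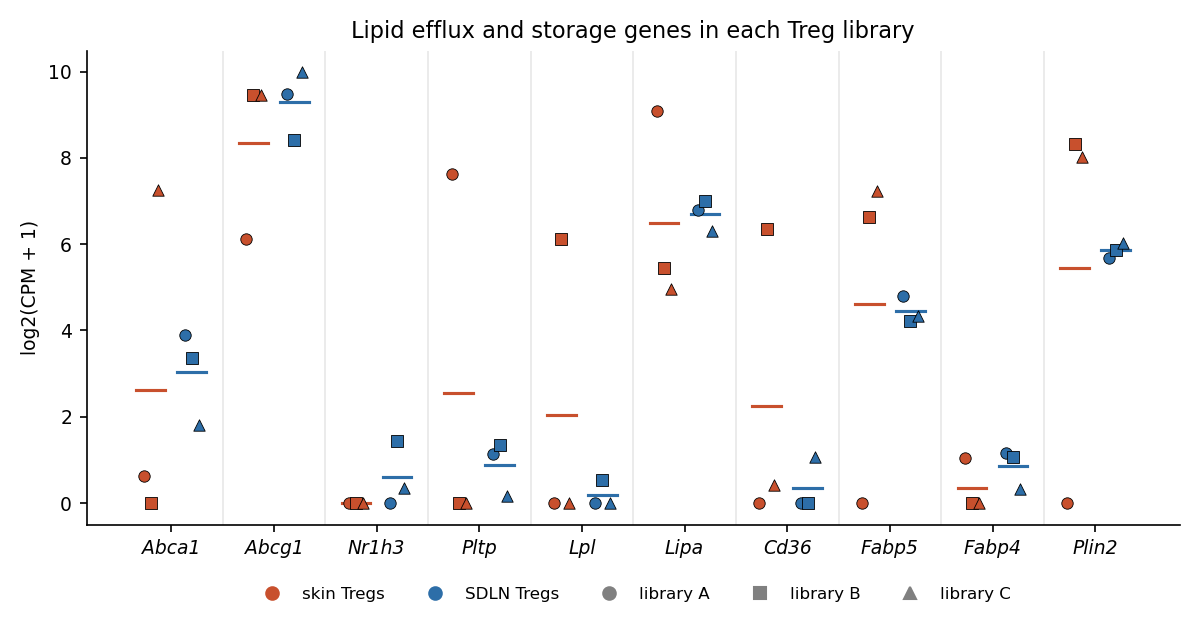
Each point is 1 library, red for skin Tregs and blue for SDLN Tregs, with its level on the vertical axis as log2(CPM + 1), and horizontal bars are means of those log2 values over 3 libraries. Pltp, Abca1, Lpl and Cd36 each have 1 skin library far above the rest, Fabp5 and Plin2 have 2 high skin libraries and 1 at 0, and the SDLN points of Fabp5, Plin2 and Lipa lie close together.

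Among the genes of lipoprotein remodelling and lipid hydrolysis, Pltp (ENSMUSG00000017754, chromosome 2, 164839518 to 164857711) had 736, 0 and 0 counts in skin Tregs and 138, 112 and 6 in SDLN Tregs. Skin Tregs A thus held 196 CPM, against 1.19, 1.54 and 0.127 CPM in SDLN Tregs, and it alone gave 100% of the skin signal. The means were 65.5 ± 113 CPM in skin and 0.951 ± 0.735 CPM in SDLN Tregs (n = 3 each), and the log2 fold change was 5.63 (SE 3.53, 95% interval -3.12 to 14.37, edgeR adjusted p = 0.313). Without skin Tregs A the fitted value was -8.63 (edgeR adjusted p = 0.0942), which is set against 0 counts in both remaining skin libraries and cannot be read as a difference at this depth, since SDLN Tregs C lay below the floor of both. Ctsa, a lysosomal protease gene on the opposite strand, overlaps Pltp and had 1559, 2115 and 1674 counts in skin Tregs. The 0 counts of Pltp in skin Tregs B and C therefore stood beside a well-covered neighbour, and without a stated strand setting the reads of the pair cannot be fully told apart.

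Lpl (ENSMUSG00000015568, chromosome 8, 68880491 to 68907448), the lipase that frees fatty acids from circulating lipoproteins, had 805 counts in skin Tregs B and 0 in the other skin libraries. In SDLN Tregs it had 33 counts in library B and 0 in A and C. The level was 68.6 CPM in skin Tregs B and 0.453 CPM in SDLN Tregs B, and the groups overlapped at 0. The gene was not tested, since it did not reach the minimum count in enough libraries.

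Lipa (ENSMUSG00000024781, chromosome 19, 34492318 to 34527474), the acid lipase that frees cholesterol and fatty acids in lysosomes, was over the floor in every library. It had 541, 42.7 and 30.1 CPM in skin Tregs and 110, 127 and 77.6 CPM in SDLN Tregs. Skin Tregs A lay above the SDLN range while skin Tregs B and C lay below it. The means were 205 ± 291 CPM and 105 ± 25.2 CPM (n = 3 each), and the log2 fold change was 0.56 (SE 1.24, edgeR adjusted p = 0.871). Without skin Tregs A it was -1.54 (edgeR adjusted p = 0.178).

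The genes of fatty acid uptake and binding behaved in 3 ways. Cd36 (ENSMUSG00000002944, chromosome 5, 17781690 to 17888801), a scavenger receptor that takes up fatty acids and oxidised lipoproteins, had 0, 955 and 3 counts in skin Tregs and 1, 0 and 51 in SDLN Tregs. The 955 counts of skin Tregs B, or 81.3 CPM, made up 99.6% of the summed skin CPM, and the next highest library was SDLN Tregs C with 1.08 CPM. Cd36 was not tested, for the same reason as Lpl. Lpl and Cd36 were both high in skin Tregs B alone.

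Fabp5 (ENSMUSG00000027533, chromosome 3, 10012548 to 10016607), the fatty acid binding protein of skin epithelium and of many immune cells, had 0, 98.3 and 150 CPM in skin Tregs. SDLN Tregs had 26.8, 17.8 and 19.2 CPM. Skin Tregs B and C lay above every SDLN library, and skin Tregs A below. A near copy of the gene, Fabp5l2, could take some of its reads, and its counts are uncertain to that extent. The means were 82.7 ± 76.2 CPM and 21.2 ± 4.84 CPM (n = 3 each), and the log2 fold change was 2.19 (SE 2.33, 95% interval -3.58 to 7.96, edgeR adjusted p = 0.627). Fabp4 (ENSMUSG00000062515, chromosome 3, 10204088 to 10208576), the adipocyte and macrophage form, had 4, 0 and 0 counts in skin Tregs and 145, 80 and 12 in SDLN Tregs. Its SDLN levels of 0.254 to 1.25 CPM were close to the floor of the skin libraries, and its log2 fold change of -2.15 (SE 1.40, edgeR adjusted p = 0.335) cannot be read as a difference at this depth.

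Plin2 (ENSMUSG00000028494, chromosome 4, 86648386 to 86670060), which coats lipid droplets in most cell types, was like Fabp5 at 0 in skin Tregs A and high in skin Tregs B and C. It had 0, 3728 and 2343 counts in skin Tregs, or 0, 318 and 259 CPM, and 50.3, 57.5 and 64.4 CPM in SDLN Tregs. Skin Tregs B and C stood above all SDLN libraries, which among themselves varied little. The means were 192 ± 169 CPM and 57.4 ± 7.04 CPM (n = 3 each), and the log2 fold change was 1.93 (SE 2.23, 95% interval -3.61 to 7.47, edgeR adjusted p = 0.668). Without skin Tregs A, Plin2 passed the test as higher in skin (log2 fold change 2.33, edgeR adjusted p = 0.0141). By limma voom on all libraries the sign was reversed (log2 fold change -0.92, limma voom adjusted p = 0.763).

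**Figure D2:**
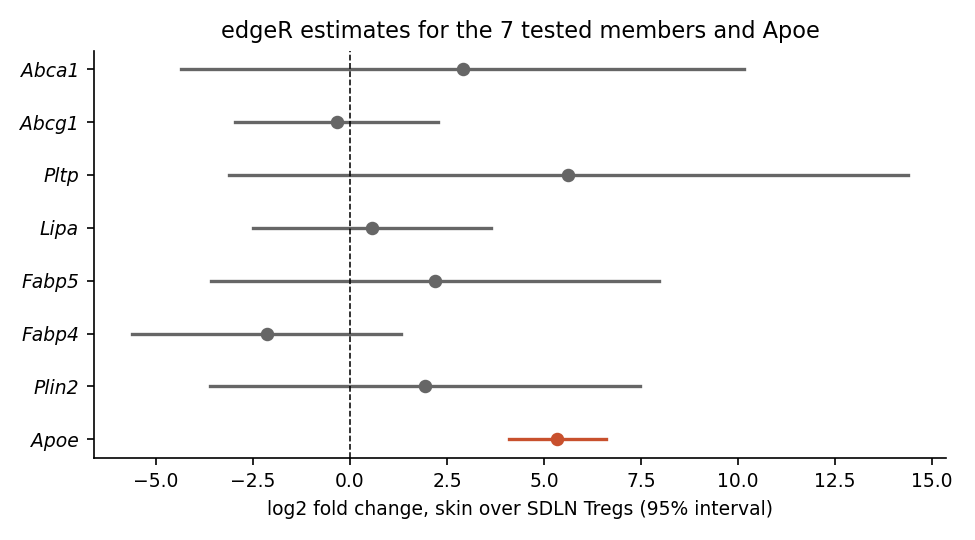
Points are log2 fold changes, skin over SDLN Tregs, from edgeR for the 7 tested genes of the set and for Apoe, and lines are 95% intervals over 3 libraries per group. The intervals of all 7 genes cross 0, whereas that of Apoe runs from 4.09 to 6.59.

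Of the 10 genes, 7 had enough counts to be tested, and 0 passed as higher in skin and 0 as higher in SDLN Tregs by edgeR. Over all 13572 genes tested, 1.04% passed as higher in skin and 45.3% as higher in SDLN Tregs, or 46.3% in either direction. At an unadjusted p under 0.05 the count was also 0 of 7, against 48.1% of all genes. DESeq2 called 0 of the 5 that it tested, with no p-value for Pltp and Abca1, and limma voom called 0 of the 7. Of the 12502 genes that DESeq2 tested, it called 3.23% as higher in skin and 51.9% as higher in SDLN Tregs, and limma voom called 0.936% and 53% of the 13572. None of the 7 tested genes had groups without overlap, against 2.39% of all genes with every skin library above and 53.6% with every skin library below. Fitted fold changes by edgeR were positive for 5 and negative for 2 of the 7, with a median of 1.93. The median over all genes tested was -2.21, or -1.40 when the genes at 0 in all libraries of a group (4516 in skin) were set to the bound that 3 counts per library allow. The 95% interval of each of the 7 genes by edgeR crossed 0. With limma voom the log2 fold change was negative for each of the 7, from -2.48 (Fabp4) to -0.40 (Abca1), so the signs depended on the tool. With a common dispersion of 2.04 in these libraries, the failure of a gene to pass does not show that its levels were alike.

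Some genes were at 0 in a skin library in which their SDLN level would have given many counts. At the mean SDLN level, skin Tregs A would have held 215 counts of Plin2 and 79.6 of Fabp5, and held 0 of each. Skin Tregs B would have held 101 counts of Abca1 and held 0. Where the genes were present they were often far over that level, with 3728 counts of Plin2 in skin Tregs B where 674 would have been expected and 1367 of Abca1 in skin Tregs C where 77.7 would have been. Abcg1 in skin Tregs A went the other way, with 255 counts where 2579 would have been expected.

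**Figure D3:**
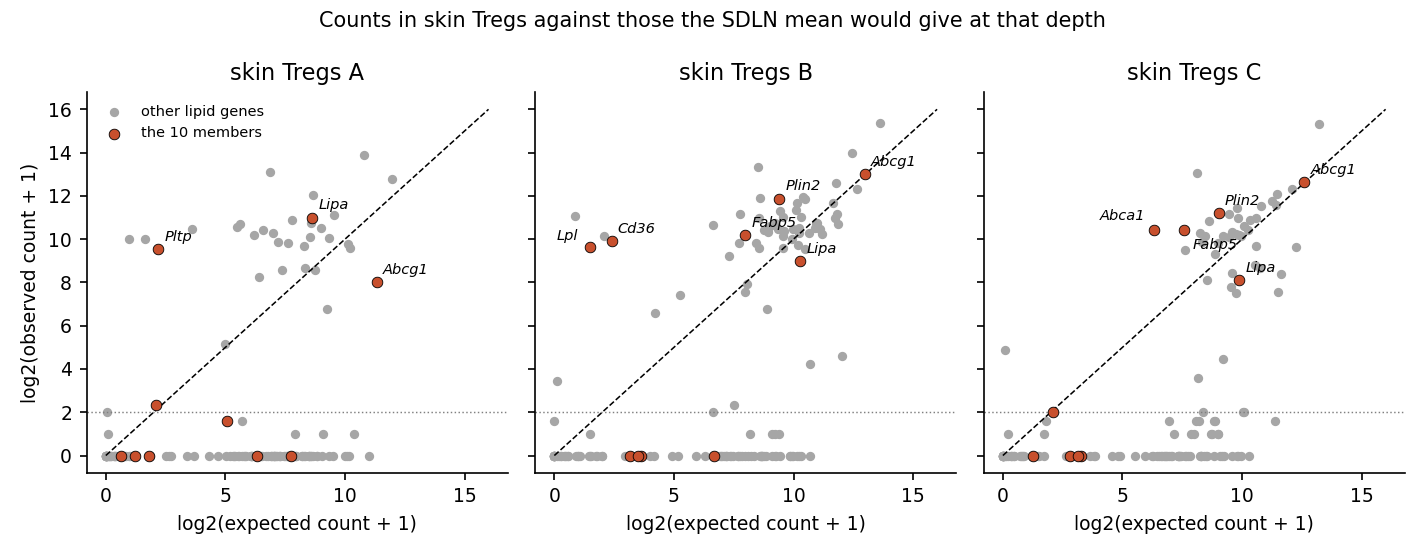
For each skin library, observed counts are plotted against the counts that the mean SDLN level would give at that library's total, both as log2(count + 1). Red points are the 10 genes, grey points are other lipid genes, the dashed line marks equality and the dotted line the floor of 3 counts, and many genes in both colours sit either well over the dashed line or at 0.

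Such levels, high in 1 or 2 skin libraries and 0 in another, were also found in many other genes. Among 3649 genes with a mean of 30 to 100 CPM in SDLN Tregs, the class of Plin2, 74.3% had 0 counts in skin Tregs A. In that class 37.6% reached 10 CPM in exactly 1 skin library and 21.3% in exactly 2, as Plin2 did. Among 2680 genes at 10 to 30 CPM, the class of Fabp5, 84.2% had 0 counts in skin Tregs A, and 8.32% reached 10 CPM in exactly 2 skin libraries, as Fabp5 did. Among 2064 genes at 3 to 10 CPM, the class of Abca1, 18.1% reached 10 CPM in exactly 1 skin library. Genes under 3 CPM seldom did so. Of 7296 genes at 0.1 to 3 CPM, 5.11% reached 10 CPM in exactly 1 skin library, and 3 of the 5 genes of the set in that class did (Pltp, Lpl and Cd36). As the set was chosen with earlier results of these data known, the 2 shares cannot be compared as a test. Lipa and Abcg1 belong to the abundant classes, in which 28.1% and 67.2% of genes were over the floor in all 3 skin libraries, as both of them were.

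Counted per library, 4, 6 and 5 of the 10 genes were over the floor in skin Tregs, and 7, 9 and 9 in SDLN Tregs. When every library was drawn down at random to the smallest total, 7, 7 and 6 were over the floor in SDLN Tregs, so the skin and SDLN ranges then touched at 6. The genes present changed from library to library. Lipa and Pltp led in skin Tregs A, Abcg1 and Plin2 in B and C. Abcg1 and Lipa alone were over the floor in all 3 skin libraries, Fabp5 and Plin2 in 2, Pltp, Abca1, Lpl, Fabp4 and Cd36 in 1 and Nr1h3 in 0.

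Per kilobase of exon, the SDLN levels had a clear order at the top. Abcg1 had 94.3 ± 46.0 CPM per kb (n = 3), followed by Plin2 with 16.3 ± 2.00 and Lipa with 15.5 ± 3.71, whose libraries overlapped, and by Fabp5 with 5.95 ± 1.36. Abca1 followed with 0.830 ± 0.555 CPM per kb and overlapped with Pltp, and Pltp, Nr1h3, Fabp4, Cd36 and Lpl had means of 0.0144 to 0.371 CPM per kb. In skin Tregs the means were 67.4 ± 50.3 CPM per kb for Abcg1 and 54.8 ± 48.1 for Plin2, then 30.2 ± 43.0 for Lipa, 25.5 ± 44.2 for Pltp and 23.2 ± 21.4 for Fabp5. These neighbours do not differ beyond their spread, and for Pltp the mean is that of 1 library.

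By Euclidean distance of log2(CPM + 1) over the 6 libraries, the genes with levels most like Pltp were Gm43071 (distance 0.633), Gm7701 (0.958) and Cd300a (0.999), all present in skin Tregs A and at 0 in skin Tregs B and C. The nearest to Abca1 were Ift172 (0.883), Glb1l (1.24) and Prkra (1.29), all at 0 in skin Tregs A and B and at 129 to 218 CPM in skin Tregs C.

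The other genes of lipid handling were counted over 9 lists with 140 genes between them, of which 105 were tested. By edgeR 4 of the 105 (3.81%) passed as higher in skin and 31 (29.5%) as higher in SDLN Tregs, against 1.04% and 45.3% of all genes tested, and 70 did not pass. The median log2 fold change was -0.17, against -2.21 over all genes tested. Each list's counts are to be read against these shares of all genes, and nothing particular to a list was tested. Apoe, the lipoprotein component that takes up exported cholesterol, had 2318, 873 and 957 CPM in skin Tregs against 21.1, 37.5 and 34.0 CPM in SDLN Tregs. It rose in skin Tregs with a log2 fold change of 5.34 (SE 0.51, edgeR adjusted p = 0.00322), every skin library was above every SDLN library, and it passed in 16 of 16 alternative settings. No gene of the set of 10 had such a pattern.

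Psap and Gm2a encode activators of sphingolipid and ganglioside breakdown in lysosomes. Psap had 4053, 1384 and 571 CPM in skin Tregs and 478, 560 and 389 CPM in SDLN Tregs (log2 fold change 1.82, SE 0.54, edgeR adjusted p = 0.0375). Gm2a had 1858, 3549 and 4478 CPM against 1071, 873 and 1239 CPM (log2 fold change 1.73, SE 0.56, edgeR adjusted p = 0.0497). The groups of both genes were apart, yet the call held in only 5 of 16 alternatives for Psap and 7 of 16 for Gm2a.

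The 31 genes that passed as higher in SDLN Tregs were nearly all listed at the floor in skin, since 30 of them had 3 counts or fewer in every skin library. The list of cholesterol efflux and liver X receptor genes had 1 gene higher in skin (Apoe) and 5 higher in SDLN Tregs of 15 tested. The latter were Lpcat3 and Abca7, which handle phospholipids, Scarb1, a lipoprotein receptor, Nceh1, a cholesterol ester hydrolase, and Rxrb, a partner receptor of the liver X receptors. Lpcat3 was at 0 in every skin library and at 90.6, 90.6 and 69.9 CPM in SDLN Tregs. Lipoprotein handling had 2 genes higher in SDLN Tregs (Lmf1 and Angptl4) of 6 tested. Msr1 and Lrp1 of that list, singled out after their values were seen, had 1032 and 1026 counts in skin Tregs A and at most 1 in skin Tregs B and C, as Pltp did.

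The PPAR list had 0 genes higher in skin and 4 higher in SDLN Tregs, among them Pparg, Acsl1 and Angptl4, of 8 tested. Pparg had a count of 0 in all 3 skin libraries and 21.1, 18.0 and 13.6 CPM in SDLN Tregs (edgeR adjusted p = 0.00322). Of the 2680 genes at 10 to 30 CPM in SDLN Tregs, 56.5% were at the floor in every skin library as well. Fatty acid binding and uptake had 0 higher in skin and 4 higher in SDLN Tregs (Slc27a1, Acsl1, Acsl3 and Slc27a4, which import or activate fatty acids) of 9 tested. The lipid droplet and lipolysis list had 0 and 2 (Lipe and G0s2) of 13, and 10 of its 13 tested genes were over the floor in exactly 1 skin library. Lysosomal lipid breakdown had 2 (Psap and Gm2a) and 4 (Asah1, Smpd1, Pla2g15 and Galc) of 12.

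The biosynthetic and oxidative lists had no gene that passed as higher in skin. Cholesterol synthesis had 3 genes higher in SDLN Tregs (Scap, Mvd and Mvk) of 21 tested, and 13 of the 21 were over the floor in exactly 1 skin library. Fatty acid synthesis had 5 of 9, including Elovl1 with 125, 129 and 164 CPM in SDLN Tregs and 0 counts in skin, Scd2, Elovl6 and Fads1. Fatty acid oxidation had 4 of 14, among them Acadl, Decr1 and Cpt2, and 5 of its 14 genes were over the floor in all 3 skin libraries, the most of any of these lists.

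**Figure D4:**
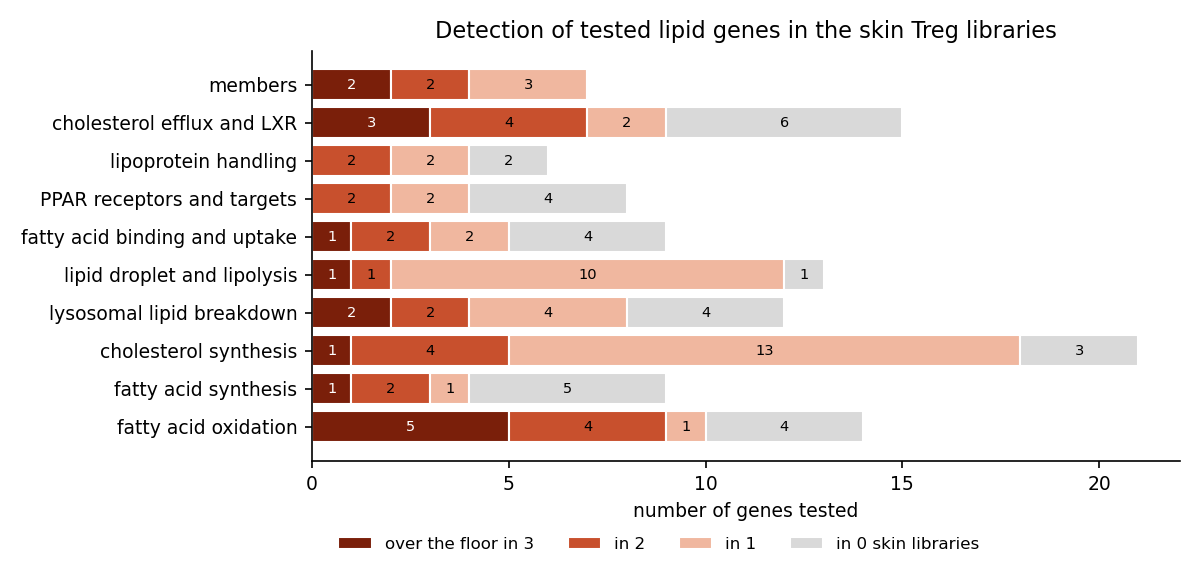
Bars give, for the 10 genes described here (7 tested) and for each list of other lipid genes, the number of tested genes that were over the floor of 3 counts in 3, 2, 1 or 0 skin libraries. In the droplet and lipolysis list 10 of 13 genes and in cholesterol synthesis 13 of 21 were over the floor in 1 skin library.

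Of the genes the study singled out besides Pltp, Abca1, Apoe and Pparg, Igf1 had 7.74, 144 and 0 CPM in skin Tregs and 0.301, 0.508 and 1.29 CPM in SDLN Tregs. Its log2 fold change was 6.17 (SE 2.90, edgeR adjusted p = 0.162), and skin Tregs B held 94.9% of its summed skin CPM. It passed by DESeq2 (adjusted p = 0.00332), whereas by limma voom the log2 fold change was 1.40 (adjusted p = 0.674) and without skin Tregs B it was 1.87 by edgeR (adjusted p = 0.416). Fabp7 was at 0 in every library, and Adipoq had 53 counts in SDLN Tregs A and 0 elsewhere.

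Markers of other cells differed between tissues, where 1.04% of all genes tested passed as higher in skin and 45.3% as higher in SDLN Tregs. Of 13 tested macrophage and monocyte markers of 18 in the list, 10 passed as higher in skin and 2 as higher in SDLN Tregs, and the summed level of the list was 4129 to 6262 CPM in skin against 181 to 325 CPM in SDLN Tregs. Lyz2, a lysozyme gene of myeloid cells, led with 1518 ± 461 CPM against 39.5 ± 13.6 CPM (n = 3 each), while Itgam, Mertk, Lyz1 and Ly6c2 were at the floor in every skin library. Of 11 tested dendritic and Langerhans cell markers of 14, 5 passed as higher in skin and 2 as higher in SDLN Tregs, with sums of 30240 to 52030 CPM against 384 to 747 CPM, led by Cd74. Cd207 and Clec9a were at 0 in every library, and Zbtb46 and Xcr1 were at the floor in every skin library. Macrophages and dendritic cells are known to express Apoe, Pltp, Abca1, Lipa, Plin2 and Cd36. The marker sums were high in all 3 skin libraries, as were Lyz2, Mrc1 and Cd68. Of the 13 tested macrophage and monocyte markers, 9 were over the floor in all 3 skin libraries. Other markers of the list, named after their values were seen, were uneven. Cd14, Fcgr1 and Cx3cr1 had 170, 95.7 and 159 CPM in skin Tregs B and 0 in skin Tregs A and C, and Cd163 had 531, 19.8 and 0 CPM. Adgre1 was high in skin Tregs A and B. Skin Tregs B also held Lpl and Cd36, and skin Tregs A held Pltp. Cd14, Fcgr1, Cx3cr1 and Cd163 were at 0 in skin Tregs C, which held Abca1. Such uneven levels were also found among all genes, as given above. The part of macrophages and dendritic cells in the levels of the 10 genes was not tested.

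Of all 13572 genes tested, 45.3% passed as higher in SDLN Tregs and 4516 were at 0 in all skin libraries. The marker lists that follow are to be read against these values. Adipocyte markers were near 0 in skin. The sum over 10 genes was 0.221 to 0.426 CPM in skin and 12.8 to 20.0 CPM in SDLN Tregs, 9 of the 10 were at the floor in every skin library, Cidec, Lep and Retn were at 0 in every library, and the 2 that could be tested (Lipe and Pck1) were higher in SDLN Tregs. Keratinocyte markers summed to 0, 29.6 and 0 CPM in skin and to 42.3 to 65.8 CPM in SDLN Tregs, with Krt5, Krt14, Krt15, Krtdap and Trp63 at 0 throughout and 2 of 3 tested genes higher in SDLN Tregs. Sfn gave nearly all of the skin value. Fibroblast markers summed to 0, 90.6 and 0.886 CPM in skin Tregs, led by Col3a1, and to 3.25 to 8.78 CPM in SDLN Tregs, with 1 of 3 tested genes (Dpt) higher in SDLN Tregs and Lum, Pdgfra and Postn at 0 throughout. The fibroblast sum was high in skin Tregs B, the library that also held Lpl and Cd36, and its part in those levels was not tested. Endothelial markers summed to 29.0 to 71.2 CPM in skin, led by Flt1, and to 143 to 177 CPM in SDLN Tregs, with 1 of 4 tested genes higher in skin, 2 higher in SDLN Tregs and Emcn, Tek and Cldn5 at 0 throughout.

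T cell and Treg markers had a lower sum in every skin library than in any SDLN library. The sum over 14 genes was 6330 to 10760 CPM in skin and 12140 to 12530 CPM in SDLN Tregs, with 10, 14 and 12 of the 14 over the floor in skin Tregs. Of the genes at the floor, Cd4, which was used in the sort, had 0, 1861 and 2 counts in skin Tregs and 14288 to 54756 in SDLN Tregs, and Cd3e had 0, 1757 and 2646 counts in skin Tregs. Ctla4 passed as higher in skin and Trbc2 as higher in SDLN Tregs, and the other 12 did not pass. Il2ra had the highest mean in skin with 1301 ± 861 CPM against 1047 ± 291 CPM (n = 3 each). Ikzf2 was nearly level with it at 1299 ± 1119 CPM in skin and was the higher of the 2 in skin Tregs B and C, so this rank rested on skin Tregs A.

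**Figure D5:**
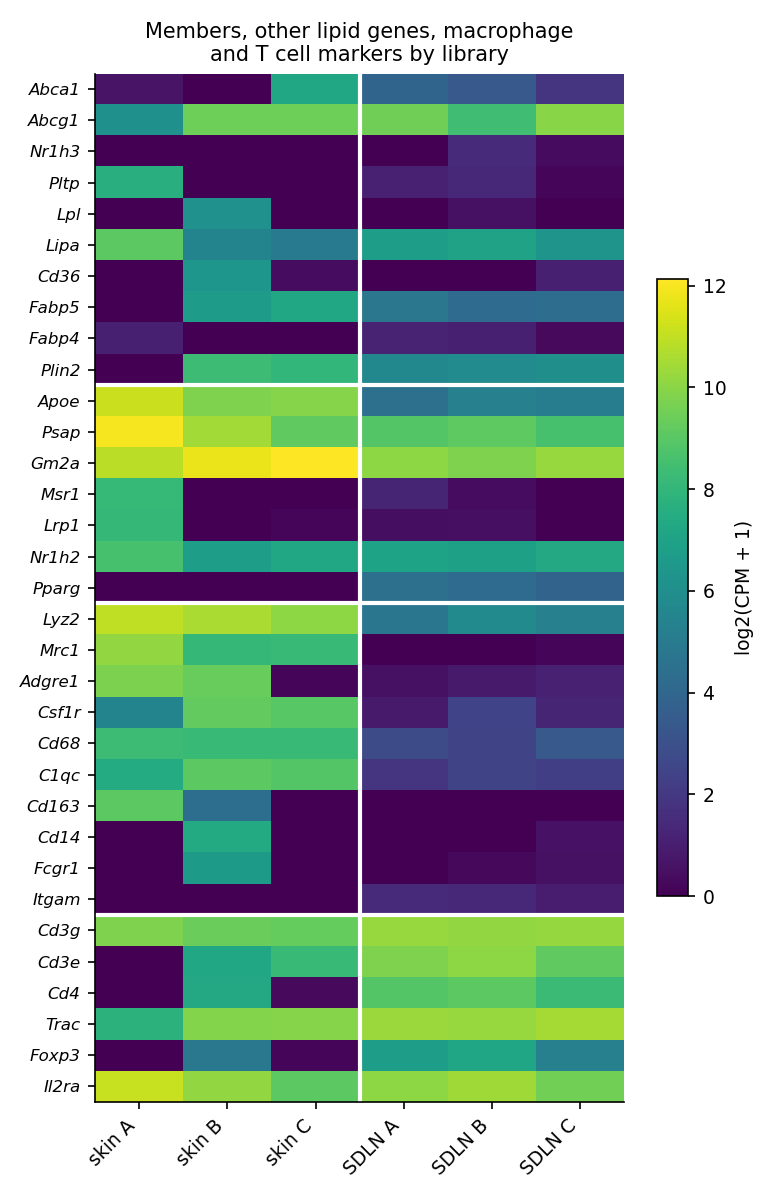
Colour gives log2(CPM + 1) in each library (columns) for the 10 genes, other lipid genes, macrophage markers and T cell markers (blocks from top to bottom, separated by white lines). Apoe, Lyz2 and Cd68 are bright in all 3 skin libraries, while Pltp, Abca1, Lpl and Cd36 are bright in 1 skin library each and Pparg is dark in all 3.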

How the data were processed

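Total RNA of sorted Tregs was sequenced as bulk libraries. According to the submitters' processing notes the authors used Trimmomatic 0.36, STAR 2.5.2b, GRCm38 and featureCounts (Subread 1.5.2), and the values they deposited are gene counts without normalization, by Ensembl identifier. The annotation, strand setting, duplicate handling and choice between poly(A) selection and rRNA depletion are not given in the sources used here. No molecular identifiers are described, so floors cover counting error only. Samples were pools of several animals, and all carried the same batch number. P-values measure the spread between 3 libraries per group.

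GENCODE M21 gave symbols to 49056 genes, with positions and exon lengths. CPM is relative to the library total. Genes kept by filterByExpr (minimum count 10) were tested with edgeR 4.0.16 (TMM, glmQLFit robust, glmQLFTest) in R 4.3.3, with Benjamini-Hochberg adjustment over 13572 genes and a threshold of 0.05. SEs were derived from the F statistic. Tested on simulated data with changes of a single size, the fit recovered changed genes at a low dispersion but not at a dispersion like that of these libraries. Changes of that size can therefore go uncalled here, and other sizes were not simulated. Alternatives used DESeq2 1.42.0, limma 3.58.1 (voom with quality weights), other normalizations and filters, equal depth, and leaving out each library. A fit with the column letters as a block was added after seeing the data. Python 3.11.15 with pandas 2.3.3 and matplotlib 3.10.9 made tables and plots.

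The groups came from sample titles, as the tissue label reads skin for lymph node samples too. The members and lists were chosen with earlier results of these data known. Named genes are the 10 members, the study's genes, in each lipid list up to 4 called genes per direction (smallest adjusted p in skin, largest mean in SDLN), the 3 genes nearest to Pltp and Abca1, and the most abundant and absent markers. Nr1h2, Rxrb, Msr1, Lrp1, Sfn and the called genes of marker lists were named after their values were seen. Some called genes of the lists are not reported here.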

Additional observations from a re-analysis of the deposited data

How the results depend on the processing

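Skin libraries held far fewer counts than SDLN libraries, and several results rested on single skin libraries. The number of the tested genes called among the 10 was 0 higher in skin in 16 of 17 alternatives and 0 higher in SDLN Tregs in 16 of 17. Leaving out each library in turn gave 0 to 1 higher in skin (Plin2 without skin Tregs A) and 0 to 1 higher in SDLN Tregs (Abca1 without skin Tregs C). The signs of fitted fold changes depended on the tool and on single libraries. With limma voom the log2 fold change was -0.55 for Pltp, -0.40 for Abca1, -0.56 for Lipa, -0.57 for Fabp5 and -0.92 for Plin2, all reversed and none called. It also reversed without skin Tregs A for Pltp (-8.63), Lipa (-1.54), Abcg1 (0.048) and Nr1h2 (-0.059), and without skin Tregs C for Abca1 (-6.02). Over single libraries left out, it ran from -8.63 to 6.19 for Pltp, -6.02 to 3.49 for Abca1, -0.93 to 0.048 for Abcg1, -1.54 to 0.98 for Lipa, 1.15 to 2.57 for Fabp5, 1.41 to 2.33 for Plin2, -8.49 to -1.30 for Fabp4 and -0.059 to 0.73 for Nr1h2. DESeq2 gave no p for Pltp and Abca1. Without a filter on low counts, the adjusted p by edgeR was 0.28 for Lpl, 0.237 for Nr1h3 and 0.326 for Cd36.

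Of the other lipid genes, the 4 higher in skin became 2 with TMMwsp, limma voom, no filter, equal depth or a threshold of 0.01, and 1 when each library had to hold 10 counts (14 genes tested), and 2 to 5 with a library left out. With a library left out, Psap (1.01 to 2.06) passed only without skin Tregs C and Gm2a (1.13 to 1.93) only without skin Tregs A. Igf1 passed without skin Tregs C (adjusted p by edgeR 0.0324) and by DESeq2, and in none of the other 12 alternatives (adjusted p 0.137 to 0.674), and without skin Tregs B its log2 fold change went from 6.17 to 1.87. The 31 higher in SDLN Tregs became 0 with that minimum, which removes genes at the floor in skin, and 30 at equal depth (98 genes tested). They became 28 to 51 with a library left out (51 without skin Tregs B). Where no construction is named, the cause was not tested.

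Group mean CPM of the 10 genes moved by at most 1 SD in 40 of 40 alternatives. For most of the genes the skin SD exceeded the skin mean, so this could hardly have failed there. With TMM-scaled library sizes the skin means of Pltp, Lipa and Abca1 became 0.712, 0.764 and 1.28 times those on library totals. At equal depth the low SDLN means of Lpl, Cd36 and Nr1h3 became 1.77, 1.72 and 0.397 times the deposited ones. The count columns are lettered, and no source used here says that a letter marks the same animals in both tissues or links letters to the labels' numbers. With the letters as a replicate block, chosen after seeing the data, 0 of the 10 genes passed in either direction, and 4 and 29 other lipid genes passed as higher in skin and in SDLN Tregs. The sign reversed for Pltp (-2.98), Abca1 (-4.81) and Lipa (-0.34), none called. Same-lettered libraries deviated from their group means with correlations of -0.0100 to 0.0914 across genes, against -0.0824 to 0.0513 for other letters. These ranges overlapped, and many genes were at 0 in a skin library, so the correlations cannot show whether letters pair libraries. Pairing was not tested, and the main fit did not use the letters.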
